A study of Mus musculus with 8 samples.

Results

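The matrix metalloproteinase (MMP) and tissue inhibitor of metalloproteinases (TIMP) genes described here are 6 protease genes, Mmp2, Mmp3, Mmp14, Mmp15, Mmp19 and Mmp23, and the 4 inhibitor genes Timp1, Timp2, Timp3 and Timp4. They were taken by name from a table of 27179 genes, and all 10 were found in it. MMPs are zinc-dependent endopeptidases that cut collagens, laminins, proteoglycans and many cell surface proteins. Most are made as inactive precursors whose propeptide has to be removed, by furin-like convertases inside the cell or by plasmin and other MMPs outside it. TIMPs bind the active site of mature MMPs and block it, and TIMP2 has a second role as the bridge through which MMP14 at the cell surface captures and activates the MMP2 precursor. In lung, stromal cells are known as makers of MMP2 and TIMPs, while several other MMPs are made by macrophages, neutrophils and epithelium.

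RNA was measured by bulk RNA-seq in cells sorted from lungs of C57BL/6 mice (female C57BL/6J in the study's methods) carrying the Eml4-Alk rearrangement. This tumor model is started by an adenovirus that delivers Cas9 with guide RNAs and so joins the Eml4 and Alk genes. The mice were 18 to 22 weeks old and 11 to 12 weeks after induction. They received 4.5 nmol of QZ1-(PEG2K), and lungs were removed after 2 h. This quenched fluorescent probe lights up and tags nearby cells once proteases cut its linker. On lung sections of this model, the study found that a serine protease inhibitor abolished labeling by a probe with the same linker substrate. An MMP inhibitor only reduced that labeling, and the study proposes serine proteases as the main ones cutting it. Which proteases cut QZ1-(PEG2K) near the sorted cells was not tested here. Live cells without the leukocyte surface proteins CD45 and CD11b were split by probe signal into a QZ1-hi population, with the condition label QZ+, and a QZ1-lo population, with the condition label QZ-, with at least 100000 cells in each. There were 4 libraries per population, and all 8 came from mice with the same rearrangement and the same probe, so no library from a healthy or untreated lung entered the comparison. The replicate numbers below only name libraries. The labels do not say which libraries came from separate mice, so the p values measure only the spread between these libraries.

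Total counts ran from 18380918 to 26847938 per library. Mitochondrial genes took 43.7%, 62.8%, 52.0% and 65.6% of the counts in QZ1-hi 1 to 4, and 34.0%, 53.2%, 37.0% and 43.3% in QZ1-lo 1 to 4. A level of 3 counts, taken here as the floor of detection, was worth between 0.0894 and 0.179 CPM (counts scaled to library size), and this floor covers counting error only. Levels are given as CPM after TMM scaling, which sets libraries against each other through the bulk of their genes. A positive log2 fold change means a higher level in QZ1-hi.

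The sorted populations held RNA of several cell types, which the MMP and TIMP values below have to be read beside. Of 8 endothelial markers, 8 were higher in QZ1-hi, with summed levels of 1795 ± 741 CPM and 198 ± 117 CPM in QZ1-lo (SD, n = 4 libraries each) and Ptprb the most abundant. Of 8 fibroblast markers, 7 were higher, with sums of 1543 ± 550 CPM and 156 ± 104 CPM (SD, n = 4 each) and Col1a1 the most abundant. The 4 pan-epithelial markers, led by Cdh1, were all lower in QZ1-hi, at 546 ± 121 CPM against 1437 ± 208 CPM (SD, n = 4 each). Pericyte markers, led by Cd248, summed to 126 ± 46.9 CPM and 20.1 ± 11.6 CPM (SD, n = 4 each), with 3 of 6 called higher, and mesothelial markers, led by Upk3b, to 83.7 ± 83.6 CPM and 13.5 ± 9.77 CPM (SD, n = 4 each), with 3 of 3 called higher. Of all genes tested, 9.88% were called higher and 8.21% lower in QZ1-hi. No marker on these 5 lists was at 0 in every library. In bulk samples, fewer cells of a type and less RNA per cell cannot be told apart.

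The gate against CD45 and CD11b did not leave the libraries free of leukocyte RNA. Ptprc, which encodes CD45, was at 71.4, 116, 113 and 222 CPM in QZ1-hi 1 to 4 and at 109, 138, 93.4 and 161 CPM in QZ1-lo 1 to 4. The 7 macrophage and monocyte markers, led by Lyz2, summed to 6841 ± 3445 CPM in QZ1-hi and 4964 ± 2010 CPM in QZ1-lo (SD, n = 4 each), and 0 of the 7 were called by edgeR, by DESeq2 or by limma (0 at an unadjusted p under 0.05 in edgeR). Neutrophil markers summed to 199 ± 78.7 CPM and 276 ± 33.9 CPM (SD, n = 4 each), with 1 of 4, Csf3r, called lower in QZ1-hi. Leukocyte RNA was present in all 8 libraries, and its level varied widely between them.

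All 10 MMP and TIMP genes passed the filter on low counts and were tested, and 7 differed between the populations in edgeR's quasi-likelihood test at an adjusted p under 0.05 over 15583 genes. The 6 that were higher in QZ1-hi were Mmp2, Mmp3, Mmp23, Timp1, Timp2 and Timp3, against a background of 9.88% of all genes tested. The 1 that was lower was Mmp15, against a background of 8.21%. Mmp14, Mmp19 and Timp4 were not called. The same 7 genes were those whose libraries did not overlap, 6 with every QZ1-hi library above every QZ1-lo library (background 11.9%) and 1 with every QZ1-hi library below (background 10.7%, and 22.6% for either). The median log2 fold change was 0.92 over the 6 MMPs and 1.04 over the 4 TIMPs, beside 0.02 over all genes tested. Mmp3 passed the filter only through its QZ1-hi libraries, so its count among those called is not independent of that filter.

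**Figure D1:**
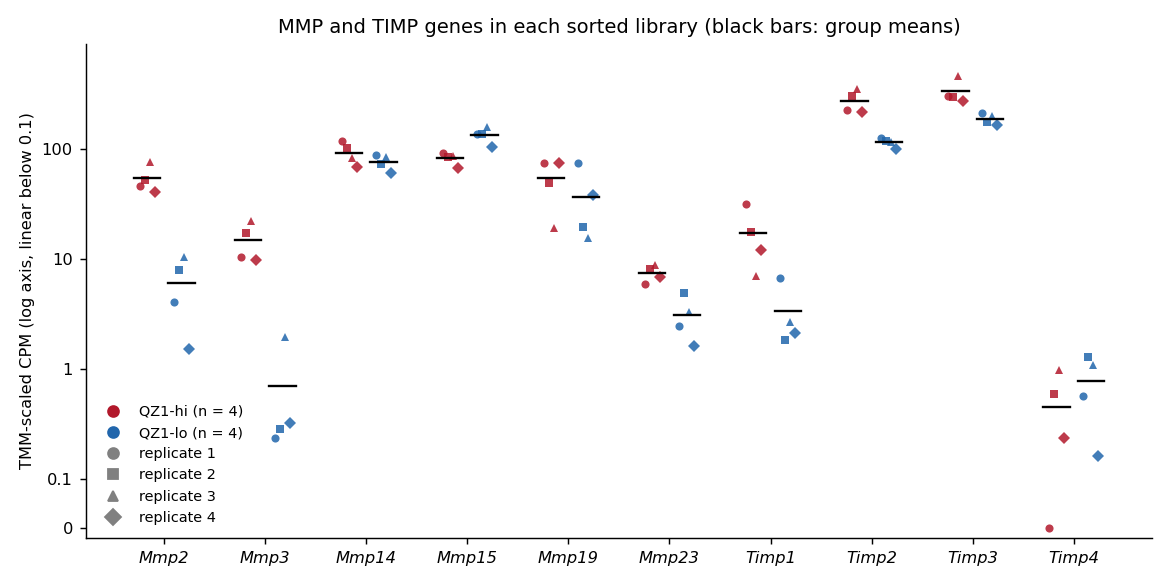
TMM-scaled CPM (log axis, linear below 0.1) of the 10 genes in each of the 8 libraries. Red points are QZ1-hi, blue points QZ1-lo, black bars the mean of 4 libraries, and marker shapes give replicate numbers, which only name libraries. Mmp2 and Mmp3 show the widest gaps between the populations, Mmp15 is the gene whose QZ1-lo points all lie above the QZ1-hi points, and Mmp14, Mmp19 and Timp4 overlap.

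Mmp2 encodes gelatinase A, which cuts denatured collagen and basement membrane collagen. It lies on chr8:92827291-92853420 (GRCm38, plus strand; Entrez 17390). Its level was 46.5, 52.1, 77.0 and 40.6 CPM in QZ1-hi 1 to 4 and 4.11, 8.01, 10.4 and 1.51 CPM in QZ1-lo 1 to 4. The lowest QZ1-hi library was well above the highest QZ1-lo library, and QZ1-lo 4 stood at the bottom of all 8. This gave a log2 fold change of 3.17 (SE 0.46, 95% interval 2.15 to 4.19; edgeR, adjusted p = 0.000937), a fitted fold of 8.99 and the 269th highest of 15583. It rested on 4165 counts in QZ1-hi and 659 in QZ1-lo. Endothelial, fibroblast, pericyte and mesothelial marker sums differed in the same direction, and their part in the Mmp2 difference was not tested.

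Mmp3 encodes stromelysin 1, a protease of broad range that cuts proteoglycans, laminin and fibronectin and removes the propeptide of other MMPs. It lies on chr9:7445822-7455975 (GRCm38, plus strand; Entrez 17392). Stromelysin RNA was at 10.5, 17.3, 22.0 and 9.89 CPM in QZ1-hi 1 to 4 and at 0.239, 0.285, 1.95 and 0.327 CPM in QZ1-lo 1 to 4. In QZ1-lo 1, 2 and 4 these levels stood for only 8, 7 and 8 counts, while QZ1-lo 3 held 54. This was a log2 fold change of 4.40 (SE 0.64, 95% interval 3.003 to 5.80; edgeR, adjusted p = 0.000876), the largest of the 10 genes and the 35th highest of 15583. Without QZ1-lo 3 it was 5.71, so the size of the difference depended on that library while the direction did not. QZ1-lo 3 also had the highest endothelial marker sum of its population, 371 CPM against 123 to 166 CPM in the others. Its pericyte (35.5 CPM), fibroblast (244 CPM) and pan-epithelial (1640 CPM) marker sums were the highest there too, and its mesothelial sum (8.54 CPM) was not. The part of any of these cells in its Mmp3 level was not tested. Of the 50-base stretches in Mmp3 exons, 8.39% also occur in another gene, mostly in its neighbour Mmp10, so a small part of its reads may be shared.

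The promoters of Mmp3, Timp2 and Mmp15 are printed as the gene with the largest rise, the most abundant inhibitor per length and the gene that was lower. Each line gives the 120 bases before the RefSeq start site (RefSeq, GRCm38.p6), read 5′ to 3′ on the gene's own strand. Capitals mark 3 motifs searched on both strands, the AP-1 motif TGANTCA, the TATA box TATAAA and the GC box GGGCGG or its reverse complement CCGCCC. The Mmp3 stretch is chr9:7445702-7445821 (plus strand), the Timp2 stretch is chr11:118355412-118355531 (minus strand) and the Mmp15 stretch is chr8:95352176-95352295 (plus strand).
Mmp3: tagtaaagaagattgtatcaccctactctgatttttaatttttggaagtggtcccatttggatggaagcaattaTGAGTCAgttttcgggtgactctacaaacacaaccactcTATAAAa
Timp2: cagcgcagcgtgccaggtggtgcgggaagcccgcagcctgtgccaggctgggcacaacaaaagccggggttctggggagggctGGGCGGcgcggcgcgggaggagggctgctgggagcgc
Mmp15: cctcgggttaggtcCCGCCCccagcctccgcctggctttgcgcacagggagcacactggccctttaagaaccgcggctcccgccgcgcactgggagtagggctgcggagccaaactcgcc

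The Mmp3 stretch had a GC content of 35.8%, with a TATA box 7 bases and an AP-1 motif 46 bases before the start site. The Timp2 and Mmp15 stretches had GC contents of 75% and 70%, and each held 1 GC box and neither of the other motifs. Over windows of 300 bases, 7.81% of 32851 RefSeq promoters held the AP-1 motif, 13.6% the TATA box and 35.7% the GC box. Of the 9 promoters listed for 8 of the 10 genes, the Mmp3 window was the one with an AP-1 motif and the one with a TATA box. A match of letters is a description of the sequence and was not tied to any measurement here.

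Mmp19 encodes a secreted MMP that cuts basement membrane components and is known from macrophages and activated fibroblasts. It lies on chr10:128790910-128800824 (GRCm38, plus strand; Entrez 58223). It was measured at 74.7, 48.9, 19.3 and 75.3 CPM in QZ1-hi 1 to 4 and at 74.5, 19.4, 15.5 and 38.4 CPM in QZ1-lo 1 to 4. High and low libraries occurred in both populations, with QZ1-hi 3 near the lowest QZ1-lo libraries and QZ1-lo 1 beside the highest QZ1-hi libraries. In the unpaired fit, the log2 fold change of 0.56 (SE 0.50, 95% interval -0.54 to 1.66; edgeR, adjusted p = 0.523) was within this spread. Without QZ1-lo 1 it was 1.16 (edgeR, adjusted p = 0.124), the largest move on leaving out 1 library, and the gene was not called without any one of the 8. The sources used here do not say whether libraries of the populations came from the same mice, so the comparison was made without pairing, and the spread it was set against holds any difference between mice. Libraries given the same number, by accession order only, had like ranks in both populations for Mmp19, as for Mmp12 and Chil3 below. Within each number, the QZ1-hi library was the higher for Mmp19, Mmp12 and Chil3. For Mmp19 the gap was small in library 1 (74.7 and 74.5 CPM). Differences within numbers were not tested.

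Macrophage markers also varied between libraries, and some but not all of them were high and low in the same libraries as Mmp19. Chil3, a chitinase-like protein abundant in alveolar macrophages, was at 3085, 1643, 794 and 4987 CPM in QZ1-hi 1 to 4 and at 2773, 1339, 570 and 3080 CPM in QZ1-lo 1 to 4. Libraries 1 and 4 were the highest and library 3 the lowest of each population for Chil3, as for Mmp19. Mmp12, the macrophage elastase, was named after its values were seen, and was at 211, 52.2, 25.5 and 141 CPM in QZ1-hi 1 to 4 and at 210, 35.7, 19.7 and 92.8 CPM in QZ1-lo 1 to 4. Marco and Mrc1, scavenger and mannose receptors of macrophages, were also lowest in library 3 of each population and highest in library 4. Library 1, which was high for Mmp19 in both populations, was not high for several other markers. QZ1-hi 1 was the lowest QZ1-hi library for Ptprc (71.4 CPM), Lyz2 (2696 CPM) and Adgre1 (20.8 CPM), and QZ1-lo 1 was below QZ1-lo 2 and 4 for these genes and for Marco. The part of macrophage RNA in the Mmp19 level was not tested. Of Mmp19 exon bases, 22.3% lie opposite exons of Tmem198b and 6.00% opposite Gm47093, and Tmem198b itself was at 5.23 CPM in QZ1-hi and 2.07 CPM in QZ1-lo. The strand setting of the counting is not given in the sources used here, so reads of these genes cannot be told apart here.

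**Figure D2:**
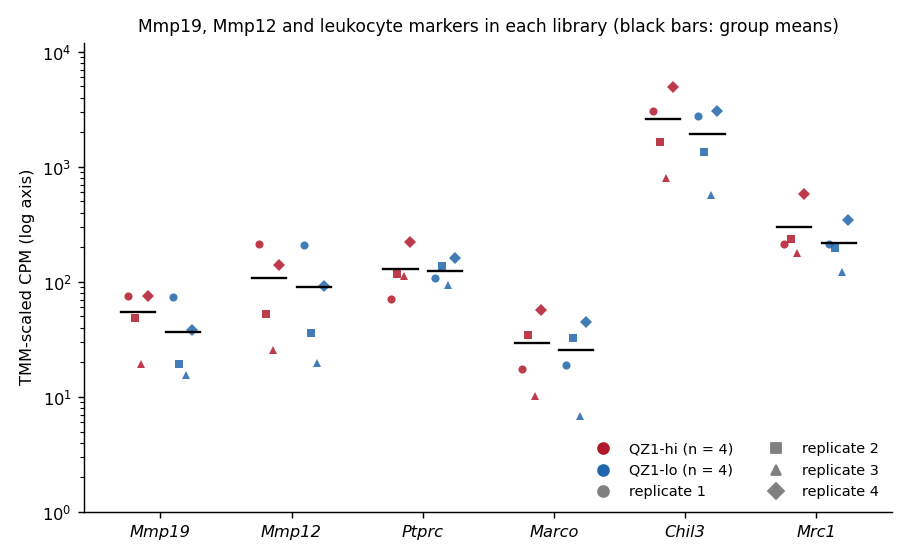
TMM-scaled CPM (log axis) of Mmp19, Mmp12, the leukocyte gene Ptprc and the macrophage genes Marco, Chil3 and Mrc1 in each of the 8 libraries. Red is QZ1-hi, blue is QZ1-lo, black bars are means of 4 libraries and marker shapes give replicate numbers, which only name libraries. For Mmp19, Mmp12, Marco, Chil3 and Mrc1, replicate 3 is the lowest library in each population.

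Mmp14 and Mmp15 encode membrane-anchored MMPs, MT1-MMP and MT2-MMP, which cut matrix at the cell surface and are switched on by furin-like convertases. Mmp14, on chr14:54431612-54445364 (GRCm38, plus strand; Entrez 17387), was at 118, 103, 82.0 and 68.3 CPM in QZ1-hi 1 to 4. In QZ1-lo 1 to 4 it was at 88.7, 73.6, 84.1 and 60.2 CPM. QZ1-hi 1 and 2 were above every QZ1-lo library and QZ1-hi 3 and 4 were not. The log2 fold change was 0.28 (SE 0.18, 95% interval -0.12 to 0.68; edgeR, adjusted p = 0.364), and with scaling by library size only it was -0.16, or 0.28 relative to the median of all genes tested under that scaling.

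Mmp15, on chr8:95352268-95375080 (GRCm38, plus strand; Entrez 17388), went the other way. It was at 92.3, 84.5, 85.7 and 67.5 CPM in QZ1-hi 1 to 4 and at 137, 136, 157 and 104 CPM in QZ1-lo 1 to 4. The lowest QZ1-lo library was above the highest QZ1-hi library. The log2 fold change was -0.69 (SE 0.15, 95% interval -1.02 to -0.37; edgeR, adjusted p = 0.00761), a fitted level 1.62-fold higher in QZ1-lo. Pan-epithelial markers were also higher in QZ1-lo, as given above, and so were the ciliated and club cell lists, with 3 of 3 markers each. Foxj1 led the ciliated list, which summed to 34.7 ± 14.6 CPM in QZ1-hi and 144 ± 42.7 CPM in QZ1-lo (SD, n = 4 each). Epithelial lists did not all go this way. The 5 alveolar type 2 markers, led by Sftpc, summed to 7296 ± 1879 CPM in QZ1-hi and 5033 ± 981 CPM in QZ1-lo (SD, n = 4 each), with Sftpc called higher in QZ1-hi (log2 fold change 0.78, SE 0.21; edgeR, adjusted p = 0.0231) and the other 4 not called. Of the 4 alveolar type 1 markers, 3 were lower and 1, Pdpn, was higher. The part of epithelial RNA in the Mmp15 difference was not tested.

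Mmp23 encodes an MMP anchored in the membrane by its N-terminal end and released by furin-like cleavage. It lies on chr4:155650655-155653384 (GRCm38, minus strand; Entrez 26561). It was measured at 5.89, 8.15, 8.85 and 6.85 CPM in QZ1-hi 1 to 4 and at 2.44, 4.92, 3.29 and 1.64 CPM in QZ1-lo 1 to 4. The populations did not overlap, but QZ1-lo 2 came close to QZ1-hi 1. The log2 fold change was 1.27 (SE 0.34, 95% interval 0.53 to 2.02; edgeR, adjusted p = 0.0232), a fitted level 2.42-fold higher in QZ1-hi. The call was lost without QZ1-hi 2 (log2 fold change 1.20, adjusted p = 0.0595), without QZ1-hi 3 (1.16, adjusted p = 0.0686) and without QZ1-lo 1 (1.18, adjusted p = 0.0649), in each case by edgeR.

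Timp1 encodes a secreted inhibitor of most soluble MMPs that also acts as a growth factor. It lies on chrX:20870166-20874735 (GRCm38, plus strand; Entrez 21857). It was measured at 31.9, 17.8, 6.996 and 12.2 CPM in QZ1-hi 1 to 4 and at 6.80, 1.83, 2.68 and 2.13 CPM in QZ1-lo 1 to 4. QZ1-hi 3 and QZ1-lo 1 nearly met, while the other 6 libraries were far apart. The log2 fold change was 2.35 (SE 0.51, 95% interval 1.22 to 3.48; edgeR, adjusted p = 0.00833), a fitted fold of 5.09. It ran from 1.87 without QZ1-hi 1 to 2.96 without QZ1-lo 1, the 2 libraries highest in their populations, and the call held without each.

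Timp2 encodes the inhibitor that also serves MMP14 in the activation of MMP2. It lies on chr11:118301069-118355740 (GRCm38, minus strand; Entrez 21858). Timp2 was at 225, 304, 353 and 215 CPM in QZ1-hi 1 to 4 and at 127, 119, 116 and 99.5 CPM in QZ1-lo 1 to 4. The QZ1-lo libraries lay close together and every QZ1-hi library was clearly above them. The difference was 1.25 on the log2 scale (SE 0.17, 95% interval 0.87 to 1.62; edgeR, adjusted p = 0.000656), a fitted fold of 2.37 with the smallest adjusted p of the 10 genes.

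Timp3 encodes the TIMP that is held in the extracellular matrix and that also blocks several ADAM proteases. It lies on chr10:86300372-86349506 (GRCm38, plus strand; Entrez 21859). Timp3 was at 303, 297, 465 and 272 CPM in QZ1-hi 1 to 4 and at 211, 177, 198 and 164 CPM in QZ1-lo 1 to 4. All QZ1-hi libraries were above all QZ1-lo libraries, with QZ1-hi 3 far above the rest of its population. The difference was 0.83 on the log2 scale (SE 0.17, 95% interval 0.45 to 1.22; edgeR, adjusted p = 0.00646), a fitted fold of 1.78. With scaling by library size only, which moved the median of all genes tested to -0.44, the value was 0.38 (edgeR, adjusted p = 0.328), or 0.83 relative to that median. The gene lies inside Syn3, which runs on the opposite strand, and 21.3% of its exon bases are opposite Syn3 exons, whose own level was 2.40 CPM in QZ1-hi and 3.08 CPM in QZ1-lo.

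Timp4, the inhibitor known for its high level in heart, was close to the floor. It lies on chr6:115241892-115252205 (GRCm38, minus strand; Entrez 110595). It held 0, 12, 17 and 4 counts in QZ1-hi 1 to 4 and 19, 32, 30 and 4 counts in QZ1-lo 1 to 4. A difference was not detectable at this depth (log2 fold change -0.79, SE 1.01, 95% interval -3.01 to 1.43; edgeR, adjusted p = 0.679).

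To set the genes beside each other, levels were divided by the kilobases of exon of each gene. In QZ1-hi the mean order was Timp2 at 70.4 CPM per kilobase, Timp3 at 41.0, Timp1 at 19.4, Mmp2 at 16.0, Mmp14 at 15.6, Mmp19 at 15.4, Mmp15 at 15.3, Mmp3 at 8.30, Mmp23 at 3.18 and Timp4 at 0.0769. Neighbours in this order overlapped between libraries from Timp2 down to Mmp15, and the libraries of Mmp15 and Mmp3, of Mmp3 and Mmp23, and of Mmp23 and Timp4 did not. In QZ1-lo the mean order was Timp2 at 29.6 CPM per kilobase, Mmp15 at 24.7, Timp3 at 23.0, Mmp14 at 12.9, Mmp19 at 10.5, Timp1 at 3.78, Mmp2 at 1.78, Mmp23 at 1.31, Mmp3 at 0.389 and Timp4 at 0.132. There, Timp3 and Mmp14 were the one pair of neighbours without overlap. With the longest transcript as the length, Mmp14 moved to the third place in QZ1-hi and Mmp15 passed Mmp19 there. In QZ1-lo, Timp3 moved to the first place and Mmp23 passed Mmp2.

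The proteases and the inhibitors were then summed per library as a description, since the genes in the sums were those tested above. The 6 MMPs summed to 73.8 ± 6.01 CPM per kilobase in QZ1-hi and 51.5 ± 9.38 in QZ1-lo (SD, n = 4 each), and the 4 TIMPs to 131 ± 21.9 and 56.6 ± 7.48 (SD, n = 4 each). TIMP RNA per RNA of these 6 MMPs was 1.63, 1.78, 2.10 and 1.56 in QZ1-hi 1 to 4 and 1.04, 1.15, 1.08 and 1.16 in QZ1-lo 1 to 4. Every QZ1-hi library thus had the higher ratio. Other MMP genes are not in the sum, among them Mmp12, at 107 CPM in QZ1-hi and 89.6 CPM in QZ1-lo. The make-up of the MMP sum differed more than its size. Mmp15 took 20.6% ± 1.12 of it in QZ1-hi and 48.4% ± 6.82 in QZ1-lo, while Mmp2 took 21.7% and 3.44% and Mmp3 took 11.2% and 0.754% (SD, n = 4 each). Mmp14 held 20.9% and 25.0%. Within the TIMP sum, Timp2 held 53.5% in QZ1-hi and 52.6% in QZ1-lo, Timp3 held 31.2% and 40.8%, and Timp1 held 15.2% and 6.39%. The Timp1 share ran from 5.06% to 27.4% over the QZ1-hi libraries and from 3.77% to 11.6% over the QZ1-lo libraries, so the populations overlapped, with QZ1-hi 3 below QZ1-lo 1 and 3. These are shares of RNA and say nothing of protein or of the active enzyme.

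**Figure D3:**
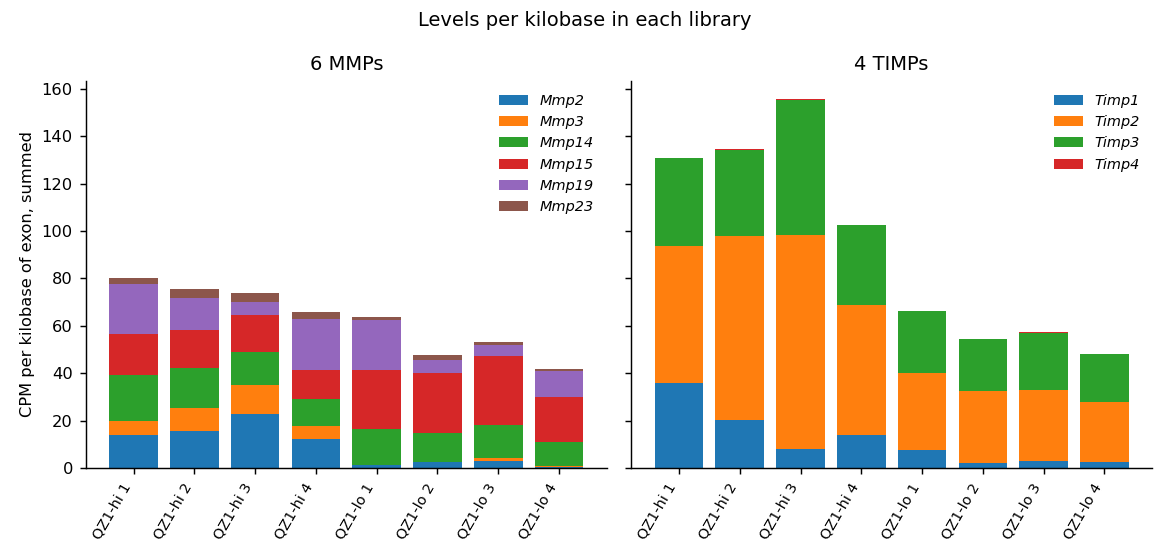
TMM-scaled CPM per kilobase of exon, stacked for the 6 MMP genes (left) and the 4 TIMP genes (right) in each of the 8 libraries. Mmp15 is the largest block of every QZ1-lo MMP bar, Mmp2 and Mmp3 are thin there and thick in QZ1-hi, and every QZ1-hi TIMP bar is taller than every QZ1-lo TIMP bar. Timp4 is too low to be seen.

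Of the 17 other MMP genes, 9 passed the filter, 1 was called higher in QZ1-hi (background 9.88%) and 2 lower (background 8.21%). Mmp28, which encodes epilysin, was at 6.40, 3.80, 8.04 and 4.23 CPM in QZ1-hi 1 to 4 and at 0, 1.06, 0.688 and 0 CPM in QZ1-lo 1 to 4. Its log2 fold change was 3.69 (SE 0.97; edgeR, adjusted p = 0.0211), with an adjusted p of 0.0601 without QZ1-hi 3 and a value of 4.60 without QZ1-lo 2, the highest of its population. Like Mmp3, it passed the filter through QZ1-hi. Mmp9, which encodes gelatinase B and is stored in neutrophils, was at 11.7, 12.2, 12.7 and 22.8 CPM in QZ1-hi 1 to 4 and at 24.9, 26.3, 31.5 and 27.2 CPM in QZ1-lo 1 to 4. It was lower in QZ1-hi in every library, by -0.89 on the log2 scale (SE 0.22; edgeR, adjusted p = 0.0154), the direction opposite to that of the other gelatinase gene, Mmp2.

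Mmp25, a membrane MMP known from neutrophils, was at 1.78, 2.22, 1.04 and 3.34 CPM in QZ1-hi 1 to 4 and at 5.22, 13.4, 2.64 and 6.75 CPM in QZ1-lo 1 to 4. Its log2 fold change was -1.74 (SE 0.50; edgeR, adjusted p = 0.0331), with the populations overlapping. The call was lost without QZ1-hi 1, 2 or 3 and without QZ1-lo 2 or 4, with edgeR adjusted p values up to 0.126 and a value of -1.22 without QZ1-lo 2. It was also lost in limma (-1.78, adjusted p = 0.0622). Of the 4 neutrophil markers, Csf3r was the one called, with a log2 fold change of -0.96 (SE 0.21; edgeR, adjusted p = 0.00793), and the part of neutrophil RNA in Mmp9 and Mmp25 was not tested. Mmp10, which encodes stromelysin 2, had a log2 fold change of 2.06 (SE 0.67; edgeR, adjusted p = 0.0552) and was called by DESeq2 (adjusted p = 0.0101) and by limma (adjusted p = 0.0161). In edgeR it was called without QZ1-lo 3 (log2 fold change 2.98, adjusted p = 0.00685) and without QZ1-hi 3 (2.28, adjusted p = 0.0486). As with Mmp3 and Mmp28, its QZ1-lo libraries alone would not have passed the filter on low counts. The genes Mmp1a, Mmp7 and Mmp20, named after their values were seen, had 0 counts in all 8 libraries.

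**Figure D4:**
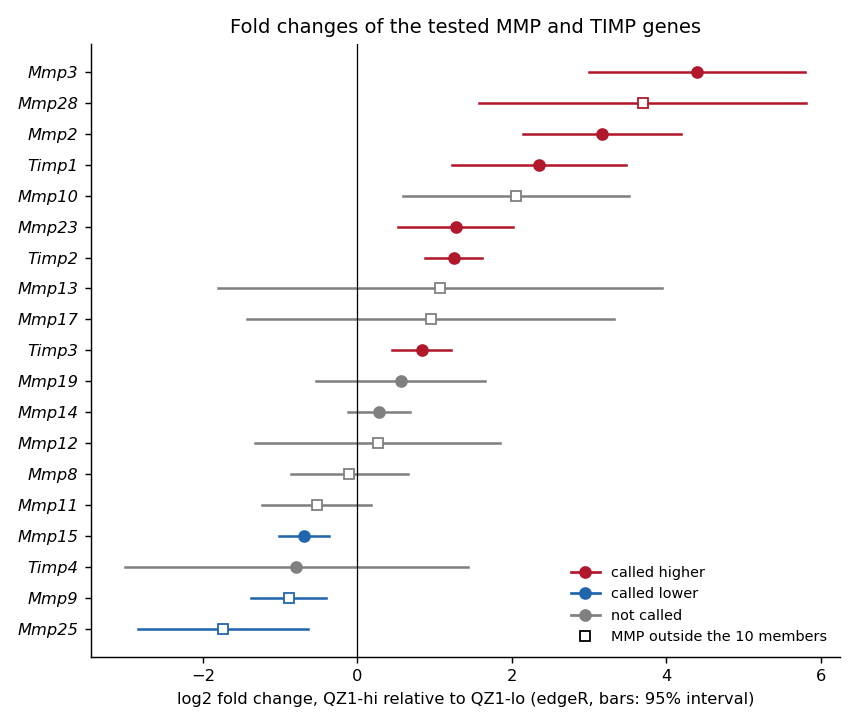
Log2 fold changes (QZ1-hi relative to QZ1-lo) of the tested MMP and TIMP genes with 95% intervals from edgeR, ordered by size. Filled circles are the 10 genes described in full, open squares other MMP genes, and colors mark those called at an adjusted p under 0.05. Mmp3 has the largest value at 4.40, and Mmp15, Mmp9 and Mmp25 are the genes called lower.

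Genes that switch MMPs on were mixed. Of 4 proprotein convertases, which remove the propeptide of membrane MMPs, 1 was called higher (background 9.88%). This was Pcsk5 (log2 fold change 1.36, SE 0.39; edgeR, adjusted p = 0.0333), but not without QZ1-hi 1 or 3 or without QZ1-lo 1, 2 or 4. With scaling by library size only, its call was also lost (0.96; edgeR, adjusted p = 0.0749). Pcsk6 (log2 fold change 1.17, SE 0.39; edgeR, adjusted p = 0.0587) and Pcsk7 (0.13) were not called. Furin was at 129 ± 17.9 CPM and 116 ± 8.89 CPM (SD, n = 4 each) and was not called. In the plasmin axis, Plat, the tissue plasminogen activator and a known endothelial product, was at 38.1, 34.8, 67.2 and 28.1 CPM in QZ1-hi 1 to 4 and at 4.38, 4.68, 7.60 and 2.41 CPM in QZ1-lo 1 to 4. Its log2 fold change was 3.14 (SE 0.36; edgeR, adjusted p = 0.000305), and all QZ1-hi libraries were several-fold above all QZ1-lo libraries. Plau, the urokinase that also makes plasmin, and its receptor gene Plaur had log2 fold changes of 0.31 and -0.06 and were not called. Plg, which encodes plasminogen, did not pass the filter, with 0 counts in QZ1-hi and 9 counts in QZ1-lo, all in QZ1-lo 1.

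Of 5 inhibitors and clearance receptors outside the TIMPs, 4 were tested and 3 were called higher in QZ1-hi (background 9.88%), while Tfpi2 was not called and A2m did not pass the filter. Reck, a membrane-anchored inhibitor of MMP2, MMP9 and MMP14, was at 4.28, 9.43, 16.4 and 10.1 CPM in QZ1-hi 1 to 4 and at 2.09, 2.32, 1.41 and 0.614 CPM in QZ1-lo 1 to 4, a log2 fold change of 2.63 (SE 0.47; edgeR, adjusted p = 0.00275). Thbs2, a matricellular protein that binds MMP2 for uptake, rose by 2.58 on the log2 scale (SE 0.36; edgeR, adjusted p = 0.000799). Lrp1, the receptor through which such complexes are taken into the cell, rose by 1.37 (SE 0.21; edgeR, adjusted p = 0.0011). The highest Reck level was in QZ1-hi 3, the library that was also highest for Mmp2, Mmp3, Timp2 and Timp3, and the lowest of the QZ1-hi libraries for Timp1.

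Of 7 inducers and binding partners, 3 were higher (background 9.88%) and 2 lower (background 8.21%). The collagen receptors split by gene, with Ddr2 at a log2 fold change of 2.44 (SE 0.34; edgeR, adjusted p = 0.000803) and Ddr1, known from epithelium, at -1.03 (SE 0.24; edgeR, adjusted p = 0.0125). The chains of the integrin that docks MMP2 also split, with Itgav lower at -1.01 (SE 0.15; edgeR, adjusted p = 0.000876) and Itgb3 higher at 0.79 (SE 0.23; edgeR, adjusted p = 0.0328). The Itgb3 call was lost without QZ1-hi 1 or 3 and without QZ1-lo 2, 3 or 4. It was also lost with scaling by library size only (0.34; edgeR, adjusted p = 0.454). Lcn2, which binds MMP9 and protects it, was higher at 0.76 (SE 0.17; edgeR, adjusted p = 0.00832). The Lcn2 call held with each library left out in turn, but was lost with scaling by library size only. Bsg, the MMP inducer, and Cd44, a surface anchor of MMPs, were at 0.07 and -0.35 and were not called.

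Genes of the matrix that MMPs cut were called higher in QZ1-hi in 18 of 18 cases (background 9.88%), with a median log2 fold change of 2.68 beside 0.02 over all genes tested. With 1 library left out, between 14 and 17 of them were called, the fewest without QZ1-lo 2, 3 or 4. DESeq2 and limma each called 17, and 13 were called with scaling by library size only. The 5 fibrillar collagen genes had a median of 3.26, close to the value of Mmp2. Col3a1, the most abundant of them, had a log2 fold change of 3.52 (SE 0.62; edgeR, adjusted p = 0.00243). Of the 7 basement membrane genes, with a median of 1.14, Nid1 and Lama4 had values of 3.65 and 3.40, while Col4a1 and Col4a2 had 0.92 and 0.76. The 6 other matrix genes had a median of 2.22, and Eln, the elastin gene, had 2.98 (SE 0.43; edgeR, adjusted p = 0.000853). Col1a1, Col1a2 and Dcn are also on the fibroblast list used above, and the part of stromal cell RNA in these differences was not tested.

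**Figure D5:**
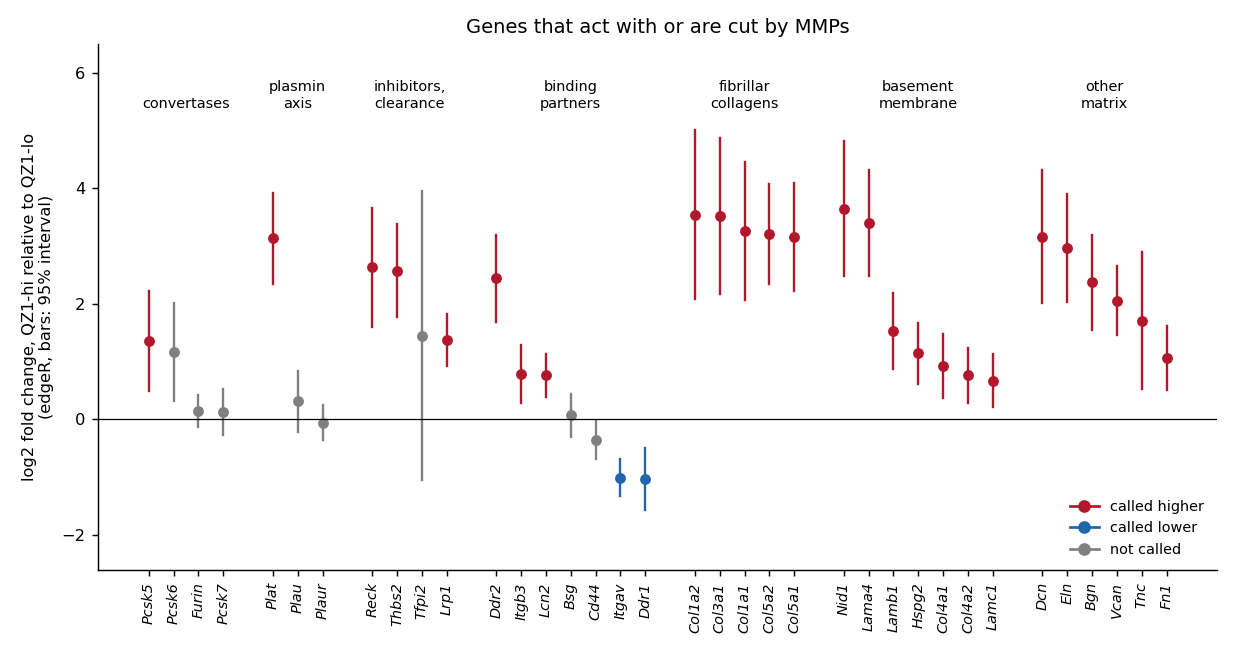
Log2 fold changes (QZ1-hi relative to QZ1-lo) with 95% intervals from edgeR for genes that act with MMPs and genes of matrix they cut, grouped by role. Red was called higher, blue lower and gray not called. The 18 matrix genes are all red, Itgav and Ddr1 are the genes called lower, and Furin, Plau and Bsg lie near 0.

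The genes whose pattern over the 8 libraries was most like that of each member were found among 10440 genes, by the root mean square difference of log2 CPM after centring each gene on its mean. Mmp2 was closest to Sod3, at a difference of 0.1001, then to Col5a1 and Ltbp1 at 0.191 and 0.200. Mmp3 had no neighbour as close, the nearest being Ldb2 at 0.524, Ccl21b at 0.536 and Inmt at 0.547. With only 8, 7 and 8 counts of Mmp3 in QZ1-lo 1, 2 and 4, counting error is part of these differences. Ccl21b belongs to a family of near-identical copies between which reads may be split. Timp1 was also set apart, with Grem1 at 0.579, Ros1 at 0.585 and S1pr3 at 0.603.

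Timp2 was closest to an unnamed gene at 0.108, then to Dpp4 at 0.114 and Pkd2 at 0.123, and Timp3 to Pkd1, Bmpr2 and Socs3 at 0.0948, 0.107 and 0.109. Mmp15 was closest to Csrp1, Itpr3 and Basp1, at 0.0977, 0.1001 and 0.102, all with the lower level in QZ1-hi. Mmp14 was closest to Bmp1, Asah2 and Txndc5, at 0.0865, 0.0906 and 0.0980, and Mmp23 to Smo, Gstm2 and Rbms3, at 0.155, 0.237 and 0.254. Mmp19 was closest to Inhba, Ccl9 and Spp1, at 0.299, 0.340 and 0.342, the latter known from macrophages among other cells. Timp4, with its few counts, had Iqcb1, Ppp1r36 and Best1 as its nearest genes, the first at 0.730.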

How the data were processed

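The authors made stranded libraries from total RNA with a SMARTer kit, ran them on a NextSeq500 instrument and used Rsubread to count reads. They deposited raw counts, not normalized, for 27179 Entrez identifiers. The submitters' processing notes name mm10 and DESeq2. The aligner, annotation and strand setting are not given in the sources used here. Symbols were found for 25275 identifiers (1904 had none) and for 129 of 129 listed genes.

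The counts were fitted with edgeR 4.0.16 (R 4.3.3), with TMM factors (0.660 to 1.35), filterByExpr (minimum count 10, minimum total 15) and the quasi-likelihood test over 15583 genes, with Benjamini-Hochberg adjustment at 0.05. Standard errors (SE) were derived from the log2 fold change and its F statistic. Exon lengths and overlaps came from GRCm38 with GENCODE M21, and promoter sequences from RefSeq (GRCm38.p6). Levels of 3 counts served as floor. The alternatives were DESeq2 1.42.0, limma 3.58.1 with voom, DESeq2 size factors, scaling by library size only, robust shrinkage, no filter, at least 10 counts in every library, a threshold of 0.01, removal of mitochondrial and ribosomal RNA genes, the longest transcript as length, and each library left out in turn.

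The members and lists were chosen with earlier results of these data known. Named genes were every member, any gene of a list of 7 or fewer, other MMPs that were called, up to 4 genes of the longer lists by smallest p, marker genes, and the 3 nearest genes of each member (mean CPM of at least 5, prior count 2). On simulated data for QZ1-hi against QZ1-lo with 15243 genes, edgeR called 34 of 98 genes changed by 1 on the log2 scale, 75 of 98 changed by 2, and 7 unchanged genes, with 0 of the wrong sign.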

Additional observations from a re-analysis of the deposited data

Results flagged for a closer look

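In groups of 4 libraries, a library was set aside for a closer look when its gap to the nearest of the others was above Dixon's 95% critical value. Of 110 groups examined, 11 were, and chance alone gives about 1 in 20. Among the MMP and TIMP genes, Mmp3 was at 1.95 CPM in QZ1-lo 3, with the next library at 0.327. Timp1 was at 6.80 CPM in QZ1-lo 1, with the next at 2.68, and Timp3 at 465 CPM in QZ1-hi 3, with the next at 303. Mmp9 was at 22.8 CPM in QZ1-hi 4, the QZ1-hi library with the highest Ptprc level and neutrophil marker sum (315 CPM), and Mmp13, named here for this value, at 2.92 CPM in QZ1-lo 1.

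Among partners and substrates, Pcsk6 was at 71.9 CPM and Lamc1 at 280.4 CPM in QZ1-hi 3. This library had the highest endothelial (2755 CPM), fibroblast (2139 CPM) and pericyte (194 CPM) marker sums, but not the highest mesothelial sum (29.7 CPM). The part of these cells in the 2 values was not tested. Lcn2 was at 444 CPM in QZ1-hi 1. Itgav was at 218 CPM and Fn1 at 931 CPM in QZ1-lo 1, and Lamb1 at 16.3 CPM in QZ1-lo 4, below the others at 29.1 or more.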

How the results depend on the processing

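No paired analysis was possible because neither the labels nor the methods tie libraries of the populations to shared mice, and the replicate numbers follow accession order. Mmp2, Mmp3, Mmp15, Timp1 and Timp2 kept their direction and call in every alternative that changed 1 choice, but Mmp3 was not tested with at least 10 counts in every library. DESeq2 and limma each called 7 members, beside 3418 and 2986 of all 15583 genes tested. At 0.01, limma called 5 members, without Mmp23 and Timp1. Scaling by library size only moved the median of all genes to -0.44 and gave 882 genes higher and 2509 lower, 5 partners higher, Mmp14 at -0.16, Mmp23 at 0.84 and Timp3 at 0.38 (the last 2 no longer called), and Mmp12, Furin and Plau, none of them called, at -0.22, -0.33 and -0.16. A threshold of 0.01 gave 902 genes higher and 665 lower, 0 other MMPs by edgeR (4 at an unadjusted p under 0.05, and 2 by each of DESeq2 and limma at 0.01), 1 partner lower and no call of Mmp23 (1.27). With each library left out, genes higher ran from 1136 to 1506 and lower from 938 to 1201, Mmp23 from 1.07 to 1.59, Mmp12 from -0.30 to 1.12 and Mmp8 from -0.55 to 0.067.

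Levels in CPM per kilobase moved with the base they were divided by. With the longest transcript as length, QZ1-hi and QZ1-lo means were 28.7 and 23.7 for Mmp14, 5.18 and 2.14 for Mmp23, and 70.8 and 39.7 for Timp3. With library size only, QZ1-lo means were 15.5 for Mmp14, 29.5 for Mmp15, 35.4 for Timp2 and 27.6 for Timp3. Without mitochondrial and ribosomal RNA genes in the totals, the QZ1-hi and QZ1-lo means were 32.2 and 3.58 for Mmp2, 31.3 and 25.8 for Mmp14, 30.7 and 49.7 for Mmp15, 31.0 and 21.003 for Mmp19, 6.38 and 2.64 for Mmp23, 39.0 and 7.59 for Timp1, 141 and 59.5 for Timp2, 82.4 and 46.2 for Timp3, and 0.154 and 0.266 for Timp4, with Mmp3 at 16.7 in QZ1-hi. With the longest transcript, chosen for this sum after seeing the data, TIMP per MMP was 1.59, 1.74, 2.21 and 1.62 in QZ1-hi and 1.10, 1.18, 1.12 and 1.23 in QZ1-lo. Depth limited Timp4 and the QZ1-lo levels of Mmp3 and Mmp28.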
